A study of Mus musculus with 6 samples.

Results

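The cytosolic ribosomal protein genes were examined in liver RNA of C57BL/6 mice lacking the cholesterol and phospholipid transporter Abca1 in hepatocytes and of floxed controls. A row of the expression table was taken as a member when 1 of its comma-separated names was Rpl or Rps followed by a number and at most 1 of the letters a, l, x or y, or was Rplp0, Rplp1, Rplp2 or Rpsa. Pseudogene names ending in -ps and the Rps6k kinases were left out. The rule found 81 of 29981 rows, 49 of the large and 32 of the small subunit. It used names alone and no measured value. In the knockout group (HSKO, n = 3), floxed Abca1 was removed by a Cre recombinase driven by the Albumin promoter. This promoter is meant to limit the deletion to hepatocytes. Abca1 in other liver cells was not measured apart. The comparison group (WT, n = 3) carried floxed Abca1 and is labelled wildtype. Food was withheld from all mice from 9 am to 1 pm. No age is given in the labels. Nor does any label say that each sample is a separate animal, and the p-values below reflect only how far these samples spread.

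Each cytosolic ribosome is built from a large subunit, which forms peptide bonds, and a small subunit, which reads the mRNA. Every ribosome needs about equal numbers of nearly all of its proteins, and their mRNAs are usually abundant in growing and secretory tissue such as liver. Most mammalian ribosomal protein mRNAs begin with a C followed by an uninterrupted run of C and T bases, the 5′ terminal oligopyrimidine (TOP) motif. Through this run the kinase complex mTORC1 controls how strongly these mRNAs are translated, so their abundance need not follow ribosome production.

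The RefSeq promoter table (build GRCm38.p6) held a start site for 60 of the 81 members, 37 of the large and 23 of the small subunit. The windows below reach from 20 bases before the annotated start to 10 bases from it, 5′ to 3′ on the gene's own strand, and capitals mark the longest run of C and T that opens with a C. They are shown because they belong to the members with the largest rises and falls that had an entry, to the most abundant member (Rpl4) and to 2 members (Rps6 and Rpl38) whose runs cover the annotated start.
Rps25, chr9:44407694-44407723, plus strand: tCCTTTTTTTCCgacatcttagcgaggctg
Rpl5, chr5:107900508-107900537, plus strand: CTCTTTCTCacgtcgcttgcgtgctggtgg
Rpl7a, chr2:26910787-26910816, plus strand: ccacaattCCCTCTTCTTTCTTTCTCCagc
Rpl31, chr1:39367831-39367860, plus strand: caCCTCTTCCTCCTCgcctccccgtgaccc
Rpl13, chr8:123102330-123102359, plus strand: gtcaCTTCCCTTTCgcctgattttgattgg
Rpsa, chr9:120127746-120127775, plus strand: tggCTgtgggttatttaaggacgtcatttc
Rpl4, chr9:64173367-64173396, plus strand: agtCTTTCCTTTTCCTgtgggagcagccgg
Rps6, chr4:86857358-86857387, minus strand: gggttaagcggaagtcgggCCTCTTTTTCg
Rpl38, chr11:114668560-114668589, plus strand: ccggaagcggaagcctcgttCTTTCCCCgt

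A run of at least 8 bases was present in such a window for 27 of the 60 members (45.0%), 18 large and 9 small, against 11.3% of the 27025 genes in the table. In 9 members (15%) the bases from the annotated start on formed such a run by themselves, whether or not it reached back before the start, against 0.936% of all genes. Rps25, Rpl5, Rpl7a, Rpl31 and Rpl13 carry a run, whereas the longest in the Rpsa window is 2 bases. Over 300 bases, from 250 before to 50 after the start and on both strands, the letters CCGGAAG, a core recognised by ETS family factors, were found in 41.7% of the members and 9.93% of all genes. The YY1 letters AAGATGGC, whose first bases can overlap the end of CCGGAAG, were found in 8.33% against 3.19%. TATAAA, the TATA box, was found in 10% against 15.7%, and the E-box CACGTG in 10% against 8.09%. These matches describe letters in the reference and not bound sites.

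The libraries were shallow. Whole reads recovered from the deposited values summed to 838637 to 933319 in WT and 631020 to 702013 in HSKO, and 1 row, BC071253, held 43.1% to 57.8% of them. Abca1, the deleted gene, gave 20, 36 and 34 reads in WT and 2, 1 and 2 reads in HSKO, and all 6 libraries matched their labels. A level below is the deposited value, reads divided by the library's size factor, so that 1 read is worth 0.564 to 0.763 in WT and 1.33 to 1.46 in HSKO. The summed level of the 13 hepatocyte marker rows was 12245 to 15116 in WT and 7885 to 11802 in HSKO. By limma, 6 of the 13 were lower and 0 higher, against 11.6% and 28.5% of all rows tested. The part of the hepatocyte markers in the results was not tested. In bulk RNA, fewer cells of a type and less RNA per cell cannot be told apart. Summed levels of other cells' markers were low. Macrophage markers summed to 36.1 to 71.7 in WT and 35.1 to 54.5 in HSKO, endothelial markers to 27.0 to 33.3 and 8.72 to 29.2, and stellate markers to 28.2 to 30.9 and 10.2 to 16. The 1 stellate row that could be tested was called lower, the 1 macrophage row was not called, and 0 endothelial rows were tested. The markers Krt19 and Krt7 of bile duct cells and Cd3e and Ms4a1 of lymphocytes were at 0 in all 6 libraries.

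Ribosomal protein mRNA made up a small part of these libraries. The 81 members together gave 2064, 1875 and 2066 reads in WT and 782, 881 and 1191 reads in HSKO. Of the reads outside BC071253 they held 0.492%, 0.369% and 0.433% in WT and 0.284%, 0.297% and 0.343% in HSKO. The share was thus lower in every HSKO library than in any WT library (0.431 ± 0.0613% against 0.308 ± 0.0312%, SD, n = 3). On the deposited scale, the summed level of the members was 1325 ± 220 in WT and 1336 ± 225 in HSKO, and the groups overlapped. Both statements start from the same reads and differ in the divisor, since the size factors were 1.31 to 1.77 in WT and 0.684 to 0.752 in HSKO.

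The level was spread unevenly over the members. Rpl4, a core protein of the large subunit that lines the peptide exit tunnel, accounted for 9.95% of the members' summed level. Together with Rpl5, Rpl26, Rps26 and Rps24 it made up 25.3%, and the 20 most abundant members 58.2%. Reads were found for 78 members. The other 3, Rpl10l, Rpl3l and Rpl39l, are copies of Rpl10, Rpl3 and Rpl39 known for expression in testis or muscle, and each had 0 reads in every library, which allows up to 3 reads. Divided by transcript length (271 to 3706 bases over the 80 members with a GENCODE M21 model), the median level per kilobase was 15.3 for large and 15.1 for small subunit genes. The highest levels per kilobase were those of Rpl26 (113), Rpl4 (86.0), Rps24 (83.1), Rpl32 (69.5) and Rps26 (61.3).

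**Figure D1:**
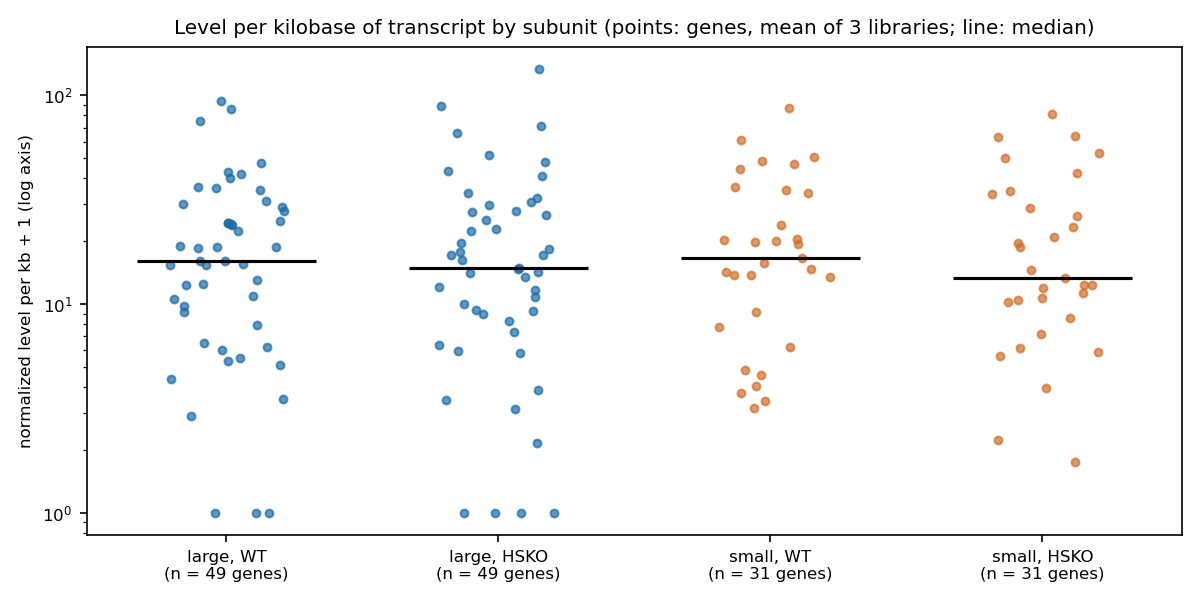
Level per kilobase of transcript (reads divided by size factor and length, plus 1, log axis) for each ribosomal protein gene, as the mean of 3 libraries, by subunit and group; lines mark medians. The medians, before 1 was added, were 15.1 in WT and 13.9 in HSKO for the large subunit and 15.6 and 12.3 for the small subunit, and the genes within a subunit spread far more widely than the medians differ.

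The HSKO livers were compared with WT to ask whether ribosomal protein mRNAs differed when hepatocytes lacked Abca1. A small minority did. Of the 48 members with a mean level of at least 10 (31 large, 17 small), 3 were higher in HSKO (Rps25, Rpl5 and Rpl7a) and 2 were lower (Rpsa and Rpl23a) at a limma adjusted p below 0.05. That is 10.4% of the members tested, against 40.1% of all 2750 rows tested. Neither this contrast nor the later ones with all rows were matched for level, and the share called differed with level. When the minimum mean was raised to 50, limma called 74.0% of 688 rows, and only 3 members were left to test. How much of the contrast comes from level was not tested. By direction, 28.5% of all rows were called higher and 11.6% lower. The median log2 fold change, HSKO minus WT on log2(level + 1), was -0.15 for the members and 0.07 for all rows, with 18 members above 0 and 30 below. Standard errors were alike, with a median of 0.33 for the members and 0.31 for all rows. At an unadjusted limma p below 0.05, 4 of the 48 members were higher and 4 lower, against 884 and 474 of all 2750 rows. The other 43 members were not shown to be the same in both groups. The 95% interval lay within a 2-fold change either way for 21 of them, and the widest bounds among them were -1.61 and 1.59. The 3 HSKO libraries did not overlap the 3 WT libraries in 11 of the 48 members, 4 higher and 7 lower (22.9%), against 51.5% of all rows, 31.4% higher and 20.1% lower.

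**Figure D2:**
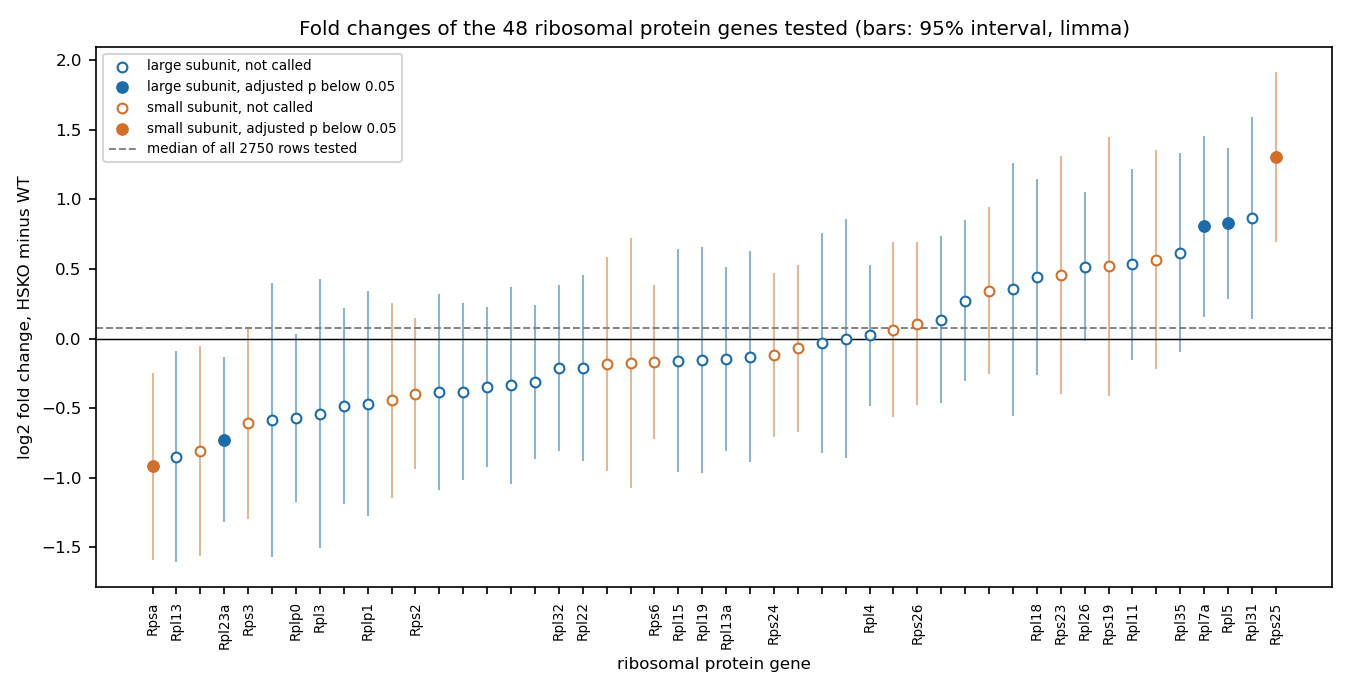
Log2 fold change, HSKO minus WT, of the 48 ribosomal protein genes tested, ordered from lowest to highest and coloured by subunit; bars are 95% intervals from limma, filled points passed an adjusted p of 0.05 and the dashed line is the median of all 2750 rows (0.07). Names are given for genes described in the text. Rps25 stands alone at 1.30, and most intervals cross 0.

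Rps25 rose most. Its protein sits on the head of the small subunit and is needed by several viral internal ribosome entry sites. Its level was 9.92, 11.8 and 10.7 in WT and 26.3, 33.4 and 25.3 in HSKO. Every HSKO library was above every WT library, with a log2 difference of 1.30 (SE 0.29, limma adjusted p = 0.00217). It rests on 13, 18 and 19 reads in WT and 18, 23 and 19 in HSKO. The call held when any 1 library was left out, with fold changes from 1.18 to 1.38 on the log2 scale. It held in 16 of 17 alternatives and was lost with scaling to total reads (0.66, adjusted p = 0.09998).

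Rpl5 and Rpl11 bind 5S ribosomal RNA and carry it into the large subunit, and both can bind Mdm2 when assembly is disturbed. The level of Rpl5 was 57.2, 50.01 and 33.3 in WT and 78.9, 81.4 and 85.1 in HSKO. The HSKO libraries lay close together and above all WT libraries (log2 fold change 0.83, SE 0.26, limma adjusted p = 0.0166). Without WT replicate 3, its lowest library, the log2 fold change was 0.60 and the adjusted p 0.0806. Its partner Rpl11 measured 16, 12.5 and 9.02 in WT and 20.5, 14.5 and 19.9 in HSKO, with overlapping groups (0.53, adjusted p = 0.198). Rpl7a, an rRNA-binding protein of the large subunit, measured 35.1, 19.1 and 23.1 in WT and 29.2, 46.5 and 63.8 in HSKO. WT replicate 1 was above HSKO replicate 1, so the groups overlapped although the difference was called (0.80, SE 0.31, limma adjusted p = 0.0459). The call for Rpl7a was lost without WT replicate 2, WT replicate 3, HSKO replicate 2 or HSKO replicate 3, with adjusted p-values of 0.191, 0.115, 0.108 and 0.188.

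The proteins around the mouth of the exit tunnel, where the nascent chain meets the signal recognition particle and chaperones, mostly did not pass the test. Of 7 such members (Rpl17, Rpl19, Rpl22, Rpl23a, Rpl26, Rpl31 and Rpl35), 6 were tested, 0 were higher and 1 was lower. That is 16.7% called, against 40.1% of all rows, 28.5% higher and 11.6% lower. Rpl23a, a docking site for the signal recognition particle, fell from 30.5, 25 and 22 in WT to 14.6, 16 and 14.6 in HSKO. The groups did not overlap (log2 fold change -0.73, SE 0.28, limma adjusted p = 0.0472), but the adjusted p lay between 0.0666 and 0.148 when any 1 of the 6 libraries was left out. Rpl31 measured 19.8, 19.1 and 11.8 in WT and 19.0, 27.6 and 55.9 in HSKO. Its log2 fold change of 0.87 did not pass (adjusted p = 0.0535) and was 0.45 without HSKO replicate 3, its highest library. Rpl26, whose row also names the predicted gene Gm15772, had 56.5, 54.0 and 36.7 in WT and 73.1, 61.1 and 74.5 in HSKO. The groups did not overlap, and the difference did not pass (0.51, adjusted p = 0.114). Rpl35 was at 10.7 ± 2.90 in WT and 16.5 ± 0.902 in HSKO (adjusted p = 0.154). Rpl19 (log2 fold change -0.16) and Rpl22 (-0.21) lay nearer 0, and neither passed.

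Rpl4 was the most abundant member, with 139.7, 129.6 and 121 in WT and 109.6, 122 and 172 in HSKO. All WT values lay within the HSKO range (log2 fold change 0.02, 95% interval -0.48 to 0.53). Rpl13 and Rpl13a sit in the body of the large subunit, and Rpl13a is also known as a translational repressor in inflammation when released from the ribosome. Rpl13 measured 19.1, 19.7 and 15.8 in WT and 10.2, 5.82 and 14.6 in HSKO, all below WT, but did not pass (-0.85, SE 0.36, adjusted p = 0.0674). The row that names Rpl13a with Snord34, a small nucleolar RNA in its intron, had overlapping groups and a log2 fold change of -0.15 (adjusted p = 0.729).

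The stalk proteins recruit elongation factors to the large subunit. Rplp0, the base of the stalk, measured 44.3, 23.0 and 29.9 in WT and 21.9, 20.4 and 19.9 in HSKO. All HSKO libraries were below all WT libraries, but the WT libraries spread widely and the difference did not pass (log2 fold change -0.57, SE 0.29, limma adjusted p = 0.118). Rplp1, a tip protein of the stalk, had 28.2, 11.8 and 13 in WT and 7.31, 13.1 and 16 in HSKO, with overlapping groups (-0.47, adjusted p = 0.341). Its binding partner Rplp2 gave 4, 2 and 2 reads in WT and 0, 1 and 0 in HSKO and was too low to test.

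Among small subunit proteins, Rpsa fell most. It is needed for small subunit maturation and is also known as a laminin receptor. Its level was 29.0, 23.0 and 18.6 in WT and 8.77, 11.6 and 16 in HSKO. The groups did not overlap (log2 fold change -0.92, SE 0.32, limma adjusted p = 0.0288). The call was lost without WT replicate 1, WT replicate 2, HSKO replicate 1 or HSKO replicate 2, with adjusted p-values of 0.113, 0.0814, 0.0876 and 0.0550. HSKO replicate 1 was its lowest library.

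Rps2 and Rps3 lie at the entry of the mRNA channel. Rps2 measured 51.1, 43.4 and 35.5 in WT and 29.2, 33.4 and 34.6 in HSKO, without overlap (log2 fold change -0.40, limma adjusted p = 0.225). The row of Rps3 with Snord15b measured 32.1, 29.6 and 27.6 in WT and 10.2, 23.3 and 29.3 in HSKO (-0.60, adjusted p = 0.146). Of the HSKO libraries, replicate 3 alone reached into the WT range. The most abundant small subunit genes were closer to 0. Rps26, at the mRNA exit, had 41.1 ± 16 in WT and 42.4 ± 1.57 in HSKO. Rps24, required for early rRNA processing, had 40.1 ± 7.60 and 37.7 ± 12.3. Rps6, the S6 kinase substrate used as a readout of mTORC1 activity, had 40.3 ± 3.65 and 36.1 ± 7.40. None of these 3 passed (adjusted p = 0.778, 0.758 and 0.626).

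**Figure D3:**
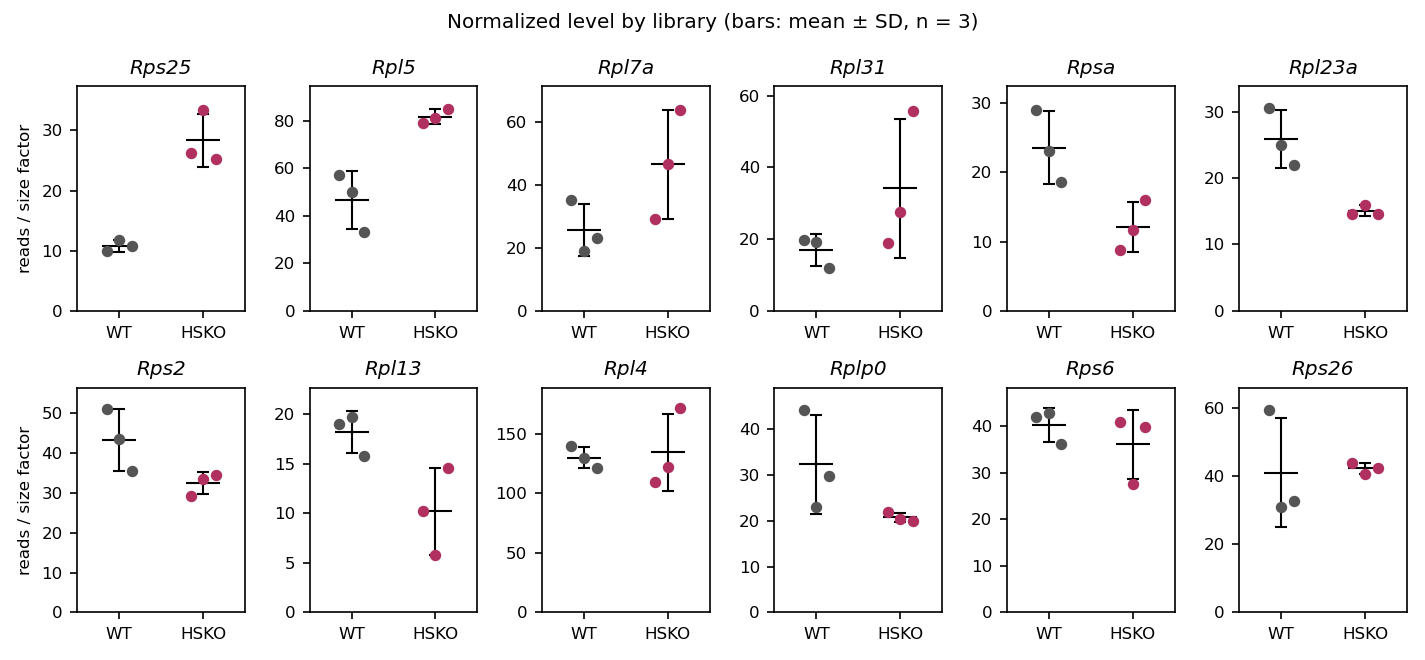
Level (reads divided by size factor) of 12 ribosomal protein genes in each of the 3 WT and 3 HSKO libraries; bars are the mean and SD. Rps25 and Rpl5 separate upward. Rpsa, Rpl23a, Rps2, Rpl13 and Rplp0 separate downward, and of these Rpsa and Rpl23a were called. Rpl7a, Rpl31, Rpl4, Rps6 and Rps26 overlap.

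HSKO libraries differed among themselves. Relative to the WT mean of each gene, the median of the 48 tested members was -0.47 on the log2 scale in HSKO replicate 1, -0.07 in replicate 2 and 0.21 in replicate 3. The WT libraries were at 0.25, -0.03 and -0.13. HSKO replicates 2 and 3 were thus within the WT range and replicate 1 below it. Without HSKO replicate 1 the median fold change of the members turned to 0.05, with 5 called higher (Rps23 and Rpl31 added to the main 3) and 0 lower (10.4%, against 34.5% of all rows). Without HSKO replicate 3 it was -0.32, with 2 called higher and 4 lower (12.5% against 36%). Leaving out WT replicate 1 gave 4 higher and 0 lower (8.33% against 41.3%). Leaving out WT replicate 2 or HSKO replicate 2 gave 2 higher and 0 lower in each case (4.17%, against 30.8% and 32%). Without WT replicate 3, 1 was higher and 1 lower (4.17% against 26.8%).

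Large and small subunit genes gave similar fold changes. Of 31 large subunit genes tested, 2 rose and 1 fell (9.68% called), with a median log2 fold change of -0.16. Of 17 small subunit genes, 1 rose and 1 fell (11.8%, against 40.1% of all rows, 28.5% higher and 11.6% lower), with a median of -0.12. The difference between these medians was -0.04 and ranged from -0.16 to 0.04 when each library was left out. Counted in reads over all 81 members, large to small subunit reads stood at 1.73 ± 0.108 in the WT and 1.91 ± 0.0406 in the HSKO libraries (SD, n = 3), and the groups did not overlap. Without Rpl5 the values were 1.63 ± 0.0946 and 1.73 ± 0.0372, and the groups overlapped. Leaving out Rpl7a, Rpl29, Rps2, Rps3, Rps6, Rps20 or Rpsa also ended the separation, and leaving out any 1 of the other 73 members did not. This ratio does not depend on how libraries are scaled, and an exact 2-sided permutation test of 3 against 3 libraries cannot go below 0.1. On the deposited scale, the summed level of large subunit genes was 838 ± 127 in WT and 877 ± 147 in HSKO, and that of small subunit genes 487 ± 94.2 and 459 ± 79.1, with overlap in both.

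Counts of members called depended on how libraries were scaled. Dividing a library by another constant shifts all its rows nearly alike on the log2 scale. Such scalings can therefore hardly move the members' median relative to that of all rows. With scaling to total reads, 0 members were higher and 20 lower (41.7%, against 46% of all rows, 8.04% higher and 38% lower), and the median of all rows moved from 0.07 to -0.57. With BC071253 left out of the total, 1 was higher and 15 lower (33.3%, against 48.8% of all rows, 15.6% and 33.2%). With scaling to the summed hepatocyte markers, 8 were higher and 0 lower (16.7%, against 39.7%, or 38.9% and 0.8%), and the members' median was above 0, at 0.38. Upper quartile scaling gave 1 higher and 7 lower (16.7%, against 46.7%, or 21.1% and 25.6%). Quantile normalization gave 1 and 3 (8.33%, against 39.9%, or 21.6% and 18.3%). DESeq2 on the recovered reads called 1 member, Rps25, higher and 0 lower (2.08%, against 33.1%, or 21.2% and 11.8%). At the same threshold edgeR called 3 higher and 5 lower (16.7%, against 46.7%, or 24.9% and 21.9%). The members' median minus that of all rows was -0.23 on the deposited scale and -0.17 to -0.23 under these other scalings and tools, -0.40 without HSKO replicate 3 and -0.03 without HSKO replicate 1. With no filter on level, which took in 78 members, it was above 0, at 0.043. The fall of Rpsa and Rpl23a passed under each of these scalings except that to hepatocyte markers, and missed the threshold with DESeq2 (adjusted p = 0.0556 and 0.0800). The rise of Rpl5 and Rpl7a passed only with the deposited scaling and with scaling to hepatocyte markers, apart from edgeR for Rpl5 (adjusted p = 0.0461).

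**Figure D4:**
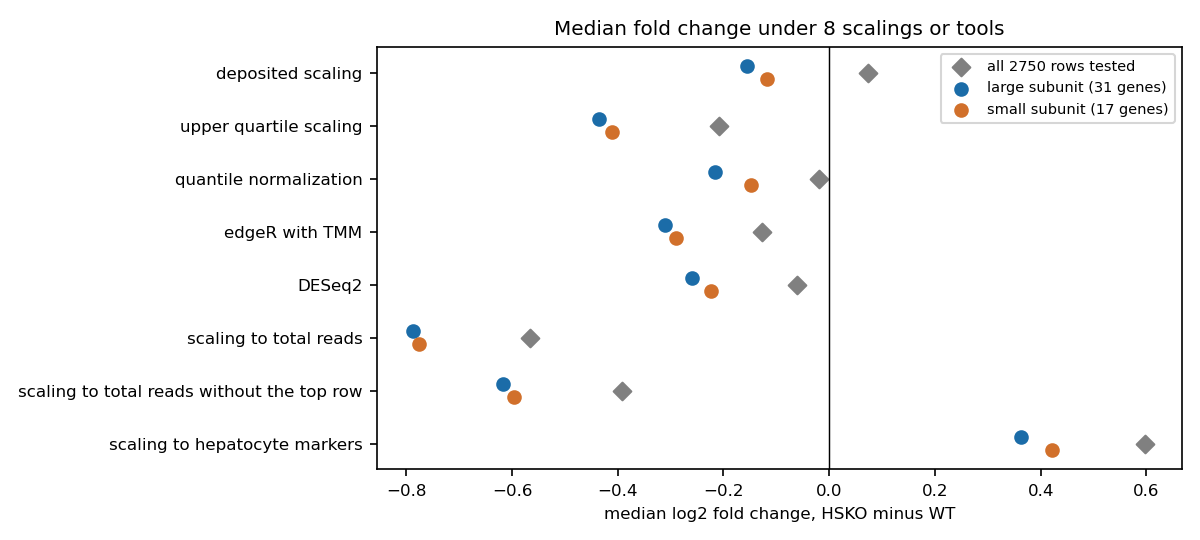
Median log2 fold change, HSKO minus WT, of large (31) and small (17) subunit genes and of all 2750 rows tested, under the deposited scaling and 7 other scalings or tools. The median of the 48 members runs from -0.78 under total reads to 0.38 under hepatocyte markers. Both subunits lie below all rows in each of the 8. A change of scaling constant moves all rows nearly alike, so these are not separate observations.

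Some members share exonic sequence with a gene on the other strand, and although the library kit kept the strand, the labels do not say whether counting used it. Whether reads of such pairs were kept apart is therefore not known. Exons of 18 members overlap such a gene in GENCODE M21. Among them 12 were tested, with 2 higher and 1 lower (25% called, against 40.1% of all rows) and a median log2 fold change of 0.21. Among the other 36 tested, 1 was higher and 1 lower (5.56% called), with a median of -0.16. A partner's row was tested for 5 members, and all 5 partners were called higher. Trappc4, opposite Rps25 on chromosome 9, measured 14.5, 9.21 and 5.08 in WT and 27.8, 27.6 and 19.9 in HSKO (log2 fold change 1.39, limma adjusted p = 0.00512). Fam69a, opposite Rpl5 on chromosome 5, was higher by 1.14 (adjusted p = 0.00243). Tbc1d8, opposite Rpl31, was higher by 0.99 (adjusted p = 0.0128). Rpl15, opposite Nkiras1 (1.22, adjusted p = 0.00138), had a log2 fold change of -0.16, and Rpl18, opposite Sphk2 (1.17, adjusted p = 0.00153), one of 0.44, and neither passed. The part of these partners in the rises of Rps25 and Rpl5 was not tested. Rpl7a, the third member that rose, has no such partner.

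**Figure D5:**
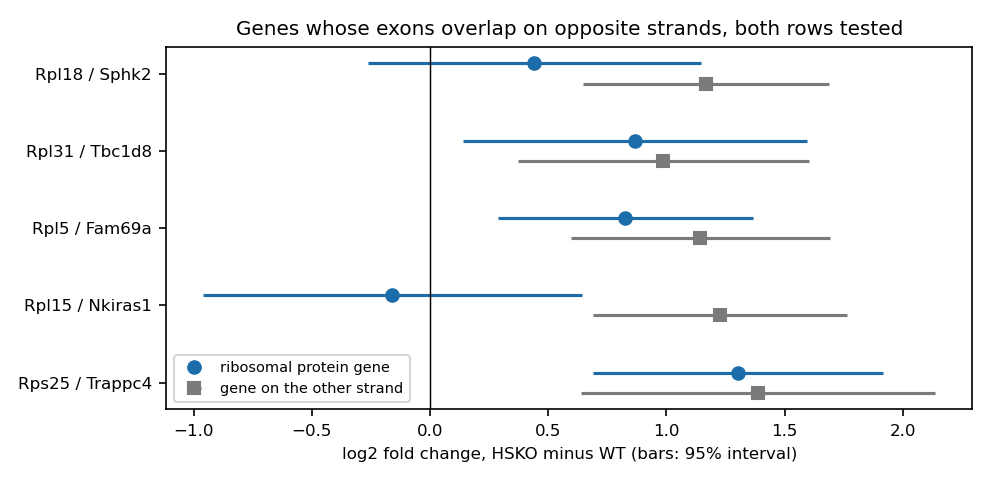
Log2 fold change, HSKO minus WT, of the 5 ribosomal protein genes with a tested partner on the other strand, beside that of the partner; bars are 95% intervals from limma. All 5 partners lie above 0, and the ribosomal protein genes range from -0.16 (Rpl15) to 1.30 (Rps25).

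Ribosomal protein genes host many small nucleolar RNAs (snoRNAs) in their introns and have many processed pseudogenes. A snoRNA lies inside 29 members. Of the 19 of these that were tested, 2 were higher (Rpl5 and Rpl7a) and 2 lower (Rpsa and Rpl23a). That is 21.1% called, against 40.1% of all rows, 28.5% higher and 11.6% lower. Their median log2 fold change was -0.39. Of the 29 tested without one, 1 was higher and 0 lower (3.45% called), with a median of -0.0024. Among 50-base words of the transcripts, a median of 54.5% per member also occurred in another gene, with a median of 9 such genes and a maximum of 120 for Rpl7a. Words of the members occurred in 1084 annotated pseudogenes, of which only 12 had a row of their own in the table, 2 of them tested and 0 called. Reads of such pseudogenes and of their parent genes cannot be told apart here. Across members, the level and the share of such words gave a Spearman rho of 0.0035 (n = 80), and the fold change and that share 0.08 (n = 48). These are descriptions over genes of the same libraries.

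Where the TOP-like run was concerned, the 19 tested members with a run near the annotated start held 3 rises (15.8%, against 28.5% of all rows) and 0 falls (against 11.6%), with a median log2 fold change of -0.0024. The 16 tested members with a start site and no such run held 0 rises and 1 fall (6.25%), with a median of -0.19. Of the 6 tested members in which the bases from the annotated start on formed such a run, 0 were called, with a median of -0.03. The 29 tested without that held 3 rises (10.3%) and 1 fall (3.45%), with a median of -0.12. The runs of Rps25 and Rpl5 end before the annotated start. Rps6, whose run covers the start, had -0.17, but Rpl7a, whose run also covers it, was called higher (0.80).

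The filter on level kept 33 members out of the test, 18 large and 15 small. Just inside it were Rps19 (mean level 10.2) and Rpl3 (10.2), and just outside Rps27 (9.51), Rps16 (8.90) and Rpl17 (8.84). The 30 of these members with reads gave 641 reads in WT and 257 in HSKO, and at most 24 in a library. Their mean level was lower in HSKO for 18 and higher for 12. With no filter, limma called 1 of them, Rpl34 (background 6.05% of 13807 rows, 4.52% higher and 1.53% lower), with 6, 4 and 5 reads in WT and 0 in each HSKO library. Against a floor of 3 reads over the HSKO group, Rpl34 was at least 2.31-fold lower (adjusted p = 0.0290). Rps4l and Rps27l, copies of Rps4x and Rps27, gave 4, 5 and 8 and 13, 4 and 13 reads in WT and 0, 1 and 3 and 4, 2 and 4 in HSKO. The row of Rps12 with 2 snoRNAs had 3, 4 and 5 reads in WT and 2, 0 and 3 in HSKO.

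Other genes of the translation pathway were counted in the same fit, in which 28.5% of all rows were called higher and 11.6% lower. Of 12 other TOP genes tested, 2 fell (16.7% called) and 0 rose, with a median log2 fold change of -0.40. The row of Eef1a1, which brings aminoacyl-tRNA to the ribosome, fell from 707 ± 14.5 to 432 ± 65.7 (-0.72, limma adjusted p = 0.0160). Gnb2l1, which encodes the small subunit scaffold Rack1, fell from 27.8 ± 2.64 to 14.4 ± 6.37 (-0.98, adjusted p = 0.0205). Of 7 elongation and termination factors, Eef1a1 alone passed, and Eef2 had -0.55 (adjusted p = 0.0586). Of 18 initiation factors tested, 1 rose and 4 fell (27.8% called). Eif5b, which joins the subunits, rose from 140 ± 21.4 to 232 ± 23.9 (0.73, adjusted p = 0.0181). Eif5 fell from 47.1 ± 12.4 to 25.1 ± 6.01 (-0.87, adjusted p = 0.0208), and Eif4g1, Eif4g2 and Eif5a, named here because they were called, had -0.64, -0.73 and -0.69. None of the 6 falling genes was called with no filter, with scaling to hepatocyte markers or without WT replicate 2. With each of the 6 libraries left out in turn, Eef1a1 and Gnb2l1 were each called 3 times, Eif5, Eif4g1 and Eif4g2 2 times each and Eif5a 0 times. The largest adjusted p of these genes lay between 0.0824 and 0.143. Eif5b was called 4 times of 6, and not without HSKO replicate 2 or HSKO replicate 3 (largest adjusted p = 0.0759).

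Of 8 ribosome biogenesis factors tested, 1 rose (12.5% called). Tsr1, needed for small subunit maturation, went from 328 ± 66.5 to 574 ± 49.4 (log2 fold change 0.82, limma adjusted p = 0.00929). Of 3 genes of mTORC1 control tested, Tsc2, an inhibitor of mTORC1, rose from 74.5 ± 14.3 to 207 ± 55.6 (1.45, adjusted p = 0.000710), and Atf4 had -0.59 (adjusted p = 0.183). Of 5 factors that meet the nascent chain, 0 passed (at an unadjusted p below 0.05, 0 higher and 1 lower), with a median of -0.51, and Srpr, a subunit of the signal recognition particle receptor, had -0.72 (adjusted p = 0.0832). Rps3a1 and Rpl36al, ribosomal proteins whose names the rule does not take, had -0.39 and -0.26 and did not pass. Of 76 mitochondrial ribosomal protein rows, only 7 were tested, and 2 of them rose (28.6% called). Mrps25 went from 476 ± 128 to 997 ± 30.1 (1.10, adjusted p = 0.00183) and Mrpl19 from 27.3 ± 4.85 to 54.7 ± 15.8 (0.95, adjusted p = 0.0126). With each library left out in turn, Tsr1, Tsc2 and Mrps25 were called 6 times of 6. Mrpl19 was called 4 times, not without WT replicate 2 or HSKO replicate 2 (largest adjusted p = 0.0598). Over all alternatives, Tsc2 passed in 18 of 18, Mrps25 in 17 of 18, Tsr1 in 15 of 18 and Mrpl19 in 12 of 17. Scaling to total reads ended the calls of Mrps25, Tsr1 and Mrpl19. Leaving BC071253 out of the total also ended those of Tsr1 and Mrpl19. Tsr1 was also lost with quantile normalization, and Mrpl19 with upper quartile scaling.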

How the data were processed

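Liver mRNA of 6 mouse samples (3 WT, 3 HSKO) was measured with a stranded mRNA kit and paired-end sequencing, per the labels' protocols. Tools in the submitters' processing notes, with no role stated, are DESeq 1.16.0, RSEM 1.2.9, Bowtie and FastQC 0.11.3, and the build is mm10. The deposited signal is reads per gene row divided by a size factor per library. Dividing by what 1 read was worth in each library gave whole reads for 100% of values, within 0.001. Of the rows, 712 name several genes.

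The main test was limma 3.58.1 (R 4.3.3) with a mean-variance trend on log2(signal + 1), for the 2750 rows whose mean reached 10, 2-sided, with Benjamini-Hochberg adjustment over all of them at 0.05. This scale understates changes of low genes. Adjusted p-values are limma's unless another tool is named. The count tests, DESeq2 1.42.0 and edgeR 4.0.16 (quasi-likelihood, TMM) on recovered reads, were alternatives and called 909 and 1285 rows. The fit was tested on simulated data. Other alternatives were 5 scalings, a replicate block, each library left out, a minimum mean of 50 or none, and pseudocounts of 10 and 0.5.

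Coordinates, transcript lengths and overlaps are from GENCODE M21 (mm10), and start sites from RefSeq (GRCm38.p6). Gene models may be longer than the mRNA counted. Floors cover counting error only. No 2 libraries agreed within counting noise, so each counted once.

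The members and lists were chosen with earlier results of these data known. Members were named by a rule: the stalk proteins and Rpsa, the 4 most abundant of each subunit, the 4 largest rises and falls, names ending in l, and rows naming several genes; of each list, the 2 genes with the smallest p. Some of these are not reported here. The tunnel exit proteins, members at the filter's edge, partners on the other strand and a few named for their role or a pattern, such as Rpl11, Rpl35 and Rpl34, stand outside it and were chosen after values were seen.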

Additional observations from a re-analysis of the deposited data

How the results depend on the processing

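Of the members called, Rps25 passed in 16 of 17 alternatives, Rpl5 in 12 of 18, Rpsa in 10 of 17, Rpl23a in 7 of 17 and Rpl7a in 5 of 17, and none of these 5 turned its direction. At this depth Rpl4 had 75 to 215 reads in a library and Rplp1 5 to 37. The cause of the changes below was not tested.

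The number of members called higher, 3 in the report, was 1 where rows needed a mean of 50, with upper quartile scaling, with quantile normalization, with total reads without BC071253 and with DESeq2. It was 0 with total reads and 8 with hepatocyte markers, and 1 to 5 with each library left out. The number called lower, 2 in the report, was 1 with no filter and 0 where rows needed a mean of 50, with hepatocyte markers and with DESeq2. It was 7 with upper quartile scaling, 20 with total reads, 15 with total reads without BC071253 and 5 with edgeR, and 0 to 4 with each library left out. The mean of 50 left 3 members to test, of which 33.3% were called, against 74.0% of the 688 rows tested. The members' median minus that of all rows turned to 0.043 with no filter. Leaving members out of the ratio of large to small subunit reads was chosen after seeing the data. Among all rows, 783 were called higher and 320 lower. The higher calls became 391 with a mean of 50, 221 with total reads and 429 without BC071253, and 581 to 822 with each library left out. The lower calls became 211 with no filter, 118 with a mean of 50, 703 with upper quartile scaling, 502 with quantile normalization, 1044 with total reads, 913 without BC071253, 22 with hepatocyte markers and 601 with edgeR, and 157 to 313 with each library left out. Over the translation lists, 5 rows were called higher and 6 lower. The higher calls were 3 with upper quartile scaling and with quantile normalization, 1 with total reads, 2 without BC071253 and 8 with hepatocyte markers, and 3 to 5 with each library left out. The lower calls were 0 with no filter and with hepatocyte markers, 17 with upper quartile scaling, 12 with quantile normalization, 34 with total reads, 28 without BC071253 and 13 with edgeR, and 0 to 5 with each library left out.

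Log2 fold changes that turned sign belonged to genes not called in the report. Rpl4 was at -0.28 with upper quartile scaling, -0.45 with quantile normalization, -0.65 with total reads, -0.47 without BC071253, -0.11 with DESeq2 and -0.17 with edgeR, and -0.17 to 0.15 with each library left out. Rps26 was at -0.19, -0.15, -0.55, -0.37, -0.093 and -0.15 under the same 6 settings, and -0.059 to 0.40 with each library left out. Rpl26 was at -0.15 with total reads. With hepatocyte markers, Rplp1 was at 0.041, Rps24 at 0.42, Rps6 at 0.37, Rps2 at 0.14, Rpl13a at 0.38, Rpl36al at 0.26 and Rps3a1 at 0.13. With each library left out, Rps24 ranged from -0.37 to 0.038, Rps6 from -0.27 to 0.0083, Rpl13a from -0.33 to 0.18 and Rpl36al from -0.48 to 0.013.

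With the replicate number as a block, 2 members were called higher (Rps25 and Rpl5) and 1 lower (Rpsa). That is 6.25% of the members, against 37.1% of all rows. Rpl7a and Rpl23a were not called (adjusted p = 0.0622 and 0.0661). The labels do not say that a number pairs samples, and deviations of same-numbered libraries correlated at -0.03, -0.03 and -0.02, so the block was not used in the report.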
